A study of Mus musculus with 8 samples.

Results

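The CD8 T cells of the mouse tongue epithelium were the cells in 8 single-cell RNA libraries whose RNA molecules carried CD3 and CD8 transcripts and no Cd4 or Trdc. Cells were thus chosen by their measured UMIs. A cell entered this set when it had 1000 to 5500 detected genes, at most 30000 unique molecular identifiers (UMIs, each standing for 1 captured RNA molecule), at most 7% mitochondrial UMIs and less than 0.5% of its UMIs from 5 keratin genes, and when it held at least 2 UMIs of Cd3e, Cd3d and Cd3g together, at least 1 UMI of Cd8a or Cd8b1, and 0 of Cd4 and of Trdc, the constant region of the delta chain. Of 42550 barcodes in the deposited matrices, 25199 passed the quality limits, 11763 of these were low in keratin, 5445 carried CD3, and 3143 were CD8 T cells.

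The libraries came from 4 genotypes with 2 libraries each, all collected 15 days after the transgenes were switched on. Every mouse carried the driver alleles Krt14-CreERT and LSL-rtTA, and by the methods also an H2B-GFP reporter. Control mice (N) carried nothing further, E mice carried tetON_E6-E7 (the papillomavirus oncogenes), Y mice carried tetON_YAP1S127A (an active form of the Hippo pathway co-activator YAP), and EY mice carried both alleles. Tamoxifen was injected into the tongue and doxycycline was given in the chow to all genotypes, so the oncogenes were driven in Krt14-expressing epithelial cells and not in T cells. Differences between genotypes in CD8 T cells are therefore differences in cells that share a tissue with the altered epithelium. The label of 1 N library (N2) carries 2 animal numbers, so it may pool animals, and Xist was detected in 85.3% of the CD8 T cells of 1 library (Y2) and in at most 0.568% of those of any other, so sex and library cannot be told apart for Y2.

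CD8 T cells recognise peptides on class I MHC molecules through the alpha-beta T cell receptor, with the CD8 chains as co-receptor. On recognition they kill target cells with granzymes and perforin or through Fas ligand, and release interferon gamma and chemokines. In squamous epithelia, part of the population stays for long periods as resident memory cells, which carry integrins such as CD103 (Itgae) and CD49a (Itga1) and the chemokine receptor CXCR6, while the receptors CCR7 and S1PR1 belong to cells that move between blood and lymphoid tissue.

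The number of CD8 T cells was 95 and 375 in the N libraries, 109 and 241 in E, 1861 and 136 in Y, and 150 and 176 in EY, so that 1 Y library (Y1) held most of the cells. The median depth of these cells lay between 3366 and 8306 UMIs per cell across libraries, and the summed UMIs of a library's CD8 T cells ran from 395276 in N1 to 12199403 in Y1. Libraries shared 2 to 19 cell barcodes per pair, and no pair shared a barcode among its CD8 T cells. At the edge of the gate, 0 to 2.27% of a library's CD8 T cells had exactly 2 CD3 UMIs and 1.88 to 17.9% had exactly 1 CD8 UMI. Outside it, 22 cells met every other criterion with a CD3 sum of exactly 1, and 105 CD3 cells carried CD8 together with Cd4 or Trdc. Within it, 80 cells lacked Cd8b1, 361 lacked Cd8a and 40 held a UMI of the regulatory T cell factor Foxp3.

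Genes that the gate had not used went with the label. Trac, the constant region of the receptor's alpha chain, was detected in 82.1 to 96.7% of CD8 T cells per library and in 0.429 to 2.05% of keratin-high epithelial cells. Ccl5, a chemokine of effector T cells, was found in 71.0 to 95% of CD8 T cells against 2.61 to 30.3% of conventional CD4 T cells (CD3 and Cd4 UMIs, no CD8, Trdc or Foxp3). Fasl, the gene of Fas ligand, was found in 24.4 to 71.8% of CD8 T cells and in 7.83 to 41.4% of CD4 T cells, and Gzmk, the gene of granzyme K, in 20 to 38.6% and 0 to 11.5%. In keratin-high cells, whose median depth was 10723.5 to 23029 UMIs, Gzmk and Fasl were detected in 0 to 0.241% and 0.0614 to 1.19% of cells. The 6 markers of the label, of which Cd3e, Cd8a and Cd8b1 were used by the gate, together made up 9229 CPM (UMI counts scaled to a common total per library) or more in N, 7340 to 7891 in E, 7265 to 9403 in Y and 4756 to 6147 in EY, which puts both EY libraries lowest.

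Markers of other cells were present in the summed CD8 counts at levels that differed between genotypes. The summed level of 4 neutrophil markers was 68.0 and 283 CPM in N, 11 and 26.9 in E, between 23.4 and 1975 in Y and between 1787 and 4284 in EY. The 5 dendritic or Langerhans cell markers reached 116 to 497 CPM in N, 81.6 to 85.7 in E, 1248 to 1447 in Y and 146 to 854 in EY, and the 6 macrophage or monocyte markers 20.2 to 135, 17.6 to 46.3, 260 to 271 and 158 to 224 CPM. Keratinocyte markers lay between 401 and 1569 CPM, NK cell markers between 16.2 and 39.3, fibroblast markers between 3.68 and 58.2, B cell markers between 2.21 and 8.25 with Ms4a1 at 0 in every library, and erythroid markers between 5.28 and 1608. The 3 mast cell markers summed to 2.53 to 6.91 CPM in N, 5.74 to 11 in E, 35.7 to 73.4 in Y and 55.4 to 79.5 in EY, all of it from Kit, since Cpa3 and Mcpt4 were at 0 in every library. Genes that other cells held at more than 5 times the CD8 level were therefore counted apart below. This was done among the genes called higher for the YAP transgene, in EY against N and in EY against E.

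CD8 T cells made up 21.3% (95% exact Clopper-Pearson interval 17.6 to 25.4) and 50.7% (47.1 to 54.4) of the CD3 cells in N, 38.7% (32.9 to 44.6) and 38.8% (35.0 to 42.8) in E, 86.7% (85.2 to 88.1) and 20.8% (17.7 to 24.1) in Y, and 49.0% (43.3 to 54.8) and 70.4% (64.3 to 76.0) in EY. The Y libraries stood at opposite ends of this range, and the N libraries differed by more than the E libraries did. The mean share was 19.3 percentage points higher in the 4 libraries with the YAP transgene than in the 4 without (exact permutation test over all 70 labellings, two-sided, p = 0.286, adjusted p = 0.914 over 4 tests), and 4.34 points higher with E6-E7. As a share of all keratin-low cells, CD8 T cells ran from 9.21% in EY1 to 46.5% in Y1. None of these differences passed the test, whose smallest possible p is 0.0286, and shares were not tested between single genotypes. The intervals cover counting error only.

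**Figure D1:**
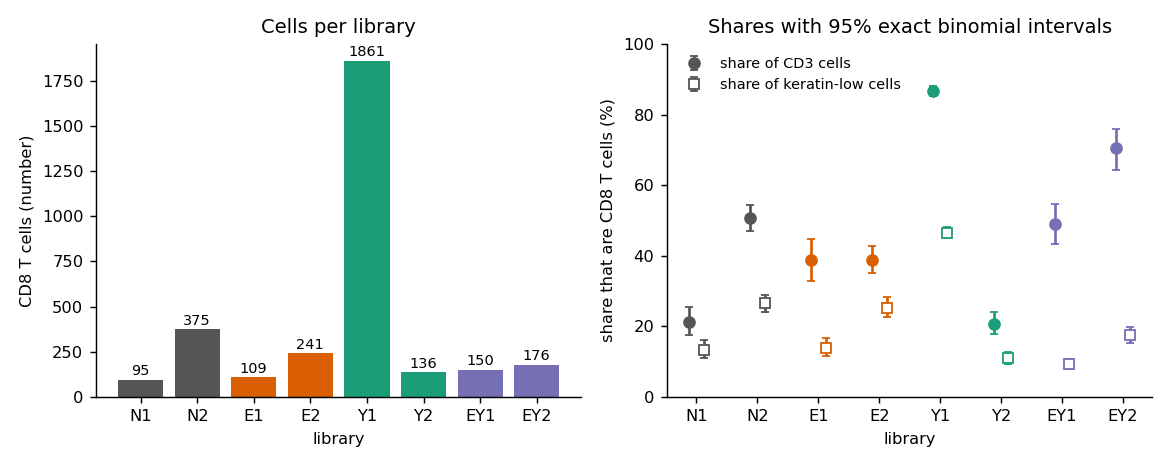
The bars on the left give the number of CD8 T cells in each library, and the points on the right their share in percent of CD3 cells (filled circles) and of keratin-low cells (open squares) with exact 95% intervals, coloured by genotype. Y1 holds 1861 of the 3143 cells at 86.7% of its CD3 cells, and Y2 lies at 20.8%.

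Against conventional CD4 T cells of the same libraries, CD8 T cells carried the killing and NK-receptor genes, and CD4 T cells the type 17 genes. The test was edgeR's quasi-likelihood fit on summed counts with the library as a block, in the 7 libraries with at least 20 cells of both kinds (EY2 had 15 CD4 T cells), with p-values adjusted over 5470 genes by the Benjamini-Hochberg procedure. It called 367 genes higher in CD8 T cells (6.71% of those tested) and 357 lower (6.53%). Of 13 cytotoxic granule genes tested, 9 were higher and 0 lower, of 10 NK receptors 7 and 0, and of 8 genes of the type 17 programme 0 and 7. Genes used by a gate were left out of the test.

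Granzyme A (Gzma) had 851 ± 840 normalised CPM in CD8 T cells and 4.52 ± 3.46 in CD4 T cells (mean ± SD, n = 7 libraries), a log2 difference of 7.20 (SE 0.35, edgeR adjusted p = 2.42e-09), the steepest of the granule genes. Ccl5 stood at 6545 ± 1661 against 165 ± 101 CPM, a log2 difference of 5.37. Perforin (Prf1), which forms the pore through which granzymes enter, was higher by 4.69, granzyme B (Gzmb) by 3.67, the membrane protein Nkg7 by 2.82 and granzyme K (Gzmk) by 2.20. Among secreted and surface effectors, the chemokine Ccl4 was higher by 4.17, interferon gamma (Ifng) by 1.66 and Fasl by 1.59 on the log2 scale, all with adjusted p under the threshold. The lectin receptors Klre1 (4.54) and Klrd1 (3.36) were the steepest of the NK receptors.

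Inhibitory receptors did not all go the same way. Lag3, Havcr2 and Pdcd1, which encode LAG-3, TIM-3 and PD-1, were higher in CD8 T cells by 3.94, 1.57 and 1.41 on the log2 scale, and Cd160 by 3.37. Ctla4 and the costimulator Icos were lower by edgeR's test (log2 differences of -0.43 and -0.77), as was the factor Tox (-0.61). PD-1 transcripts stood at 274 ± 112 CPM in CD8 T cells and 95.5 ± 26.0 in CD4 T cells.

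Residency genes were split as well. Itga1 was higher in CD8 T cells by 2.94 and Cxcr6 by 0.64, whereas Itgae was lower by 0.95 on the log2 scale and Cd69, at 876 ± 264 and 797 ± 219 CPM, did not pass (adjusted p = 0.669, edgeR). Single genes that were lower in CD8 T cells were Cd40lg, the ligand with which helper cells stimulate B and dendritic cells (-3.78), Ccr6 (-4.00), Tnfsf8 (-3.66) and Maf (-2.52), as were the interleukin-7 receptor Il7r (-1.37) and the memory factor Tcf7 (-1.12). Of 18 immediate early and stress genes, which dissociation of tissue can also induce, 10 were lower in CD8 T cells and 0 higher, and of 12 hypoxia and glycolysis genes 4 and 0.

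Gamma-delta T cells (CD3 and Trdc UMIs, no Cd4 or CD8) could be compared in 5 libraries (N1, N2, E1, E2 and Y2). Here 315 of 4933 genes were higher (6.39%) and 318 lower (6.45%) in CD8 T cells. Il17a, the cytokine of type 17 cells, was at 69.7 ± 143 CPM in CD8 T cells and 940 ± 558 in gamma-delta T cells, lower by 5.76 on the log2 scale (SE 0.95, edgeR adjusted p = 0.000831), and 8 of 9 type 17 genes tested were lower and 0 higher. In CD8 T cells 1 cell of E1 held 128 of that library's 134 Il17a UMIs, the other 4 libraries held 0 to 8, and without E1 the log2 difference of Il17a was -7.78. Cd163l1 and Sox13, which mark interleukin-17 producing gamma-delta cells, were lower by 8.71 and 6.42. Gzmk (5.88), Ccl5 (3.41), Itga1 (2.72), Gzmb (2.93) and the growth factor gene Csf1 (7.09) were higher in CD8 T cells, but Pdcd1 was lower, at 239 ± 74.0 against 437 ± 136 CPM, a call that was lost without the library block at a log2 difference of -0.83. PD-1 transcripts in CD8 T cells therefore lay above those of CD4 T cells and below those of gamma-delta T cells, each by a test of its own pair.

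Of 16 cell cycle genes, 10 were higher in CD8 than in gamma-delta T cells and 0 lower, with Mki67 at 190 ± 67.5 against 56.2 ± 53.3 CPM. Of 14 interferon-stimulated genes 12 were higher and 0 lower, with a median log2 difference of 1.17 beside 0.01 over all genes. Itgae was lower in CD8 T cells here too (-1.71).

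NK cells (no CD3, at least 2 UMIs of Ncr1 and Klrb1c) gave 4 libraries (N2, E1, E2 and Y1). In CD8 T cells 459 of 7208 genes were higher (6.37%) and 553 lower (7.67%). Because the NK gate required 0 CD3 UMIs, the T cell receptor genes that were higher in CD8 T cells, 15 of 16 in that list, go with the gate. The granule genes divided between the cells. Gzmk and Gzmb were higher in CD8 T cells by 4.2 and 0.92 on the log2 scale, and Gzma, Prf1 and Gzmc were lower by 2.11, 1.30 and 3.18. The chemokine Xcl1, which attracts cross-presenting dendritic cells, stood at 153 ± 81.7 CPM in CD8 T cells and 2590 ± 1560 in NK cells. Pdcd1, Havcr2 and Ctla4 were higher in CD8 T cells by 3.37, 3.34 and 2.81, and interferon gamma, at 592 ± 142 and 732 ± 578 CPM, did not pass (adjusted p = 0.991, edgeR).

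**Figure D2:**
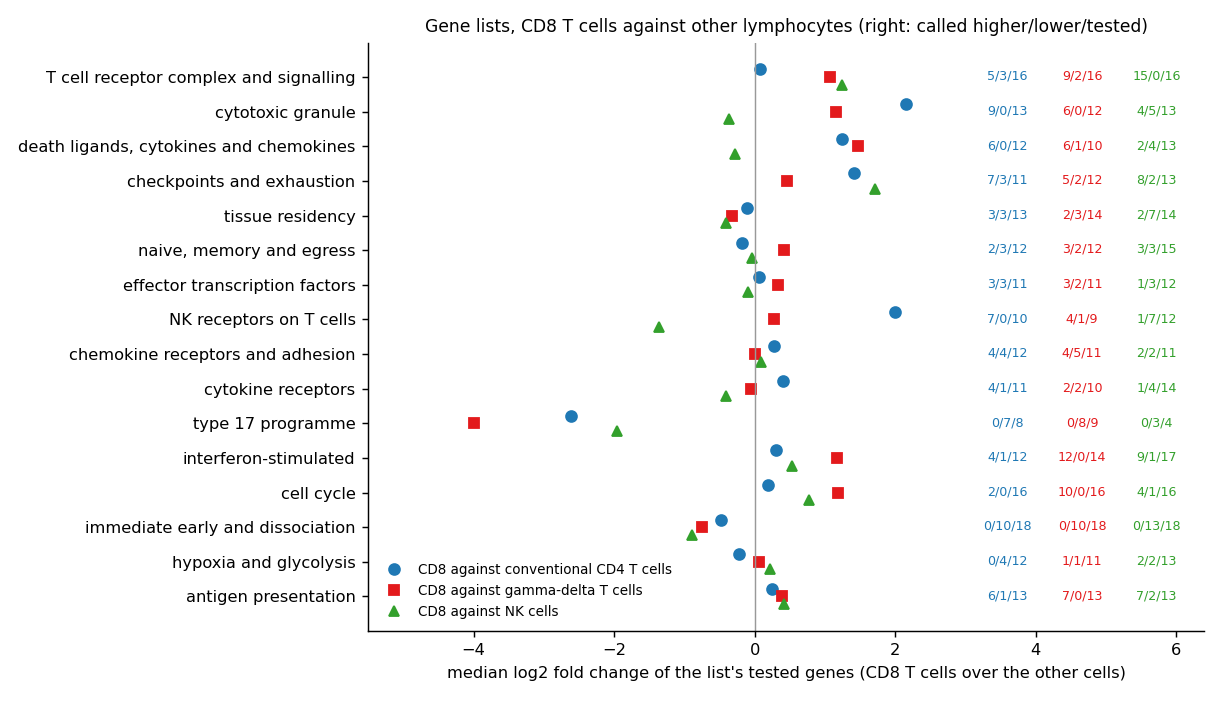
Each point is the median log2 fold change of a gene list's tested members, CD8 T cells over conventional CD4 T cells (circles), gamma-delta T cells (squares) or NK cells (triangles), with the members called higher, called lower and tested printed at the right. The cytotoxic granule list lies at 2.15 against CD4 T cells (9 of 13 higher) and at -0.36 against NK cells, and the type 17 list lies below 0 in all 3.

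The calls in these 3 comparisons moved with single libraries. Leaving out 1 library at a time gave 546 to 747 calls against CD4 T cells, 472 to 651 against gamma-delta T cells and 432 (without N2) to 1124 against NK cells, where 1012 were called with every library. Of the named genes that were called, 56 of 79, 71 of 86 and 58 of 87 kept their call under every alternative tried.

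In E mice, CD8 T cells carried more transcripts of interferon-stimulated genes than in N. Interferons act through receptors that activate transcription factors, among them IRF factors, which bind elements with repeated GAAA in the promoters of these genes. In E against N, edgeR called 25 of 8074 genes higher (0.31%) and 1 lower (0.0124%). Of the 16 interferon-stimulated genes of the list that were tested, 11 were higher and 0 lower, all 16 had a positive difference, and the median log2 difference was 2.11 beside 0.00 over all genes. Of the other genes named by the rule, Cxcl10, Ifit3b, Cmpk2, Ifi202b, Iigp1, Ifih1 and Ifit1bl1 are also induced by interferon.

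The promoters of 4 of these genes are shown because their members moved together, as RefSeq gives them for GRCm38.p6, from 250 bases before the gene's start up to the base before it, in the gene's direction. They lie at chr4:156200819-156201068 on the minus strand for Isg15, chr19:34640639-34640888 on the plus strand for Ifit1, chr12:26456453-26456702 on the minus strand for Rsad2 and chr5:92348890-92349139 on the minus strand for Cxcl10. Capitals mark each GAAA that is followed after any 2 bases by another GAAA, read on either strand.
Isg15: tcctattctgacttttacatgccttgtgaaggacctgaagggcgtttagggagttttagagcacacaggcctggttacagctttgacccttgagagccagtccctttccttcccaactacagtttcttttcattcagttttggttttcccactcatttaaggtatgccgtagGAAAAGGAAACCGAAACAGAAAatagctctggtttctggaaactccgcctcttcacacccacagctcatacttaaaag
Ifit1: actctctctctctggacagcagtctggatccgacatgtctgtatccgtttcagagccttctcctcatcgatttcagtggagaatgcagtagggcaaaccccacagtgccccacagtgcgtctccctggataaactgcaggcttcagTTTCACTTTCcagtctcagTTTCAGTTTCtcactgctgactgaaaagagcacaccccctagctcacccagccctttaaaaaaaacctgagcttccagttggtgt
Rsad2: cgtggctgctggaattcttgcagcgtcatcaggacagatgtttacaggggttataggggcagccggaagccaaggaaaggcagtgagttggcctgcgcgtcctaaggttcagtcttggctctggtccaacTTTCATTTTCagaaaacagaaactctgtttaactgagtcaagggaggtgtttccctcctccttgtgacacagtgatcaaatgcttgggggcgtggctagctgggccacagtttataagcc
Cxcl10: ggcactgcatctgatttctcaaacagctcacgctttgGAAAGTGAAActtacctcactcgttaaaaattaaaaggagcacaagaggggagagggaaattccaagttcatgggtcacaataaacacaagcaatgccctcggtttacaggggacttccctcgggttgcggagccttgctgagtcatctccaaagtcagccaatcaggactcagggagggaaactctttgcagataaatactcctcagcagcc
Isg15 had 3 overlapping matches, Ifit1 2 matches, and Rsad2 and Cxcl10 1 match each, those of Ifit1 and Rsad2 on the strand opposite to the gene. The motif was found in 7 of the 12 genes of the list with a promoter in the table (58.3%), namely Bst2, Gbp2, Ifit1, Ifit3, Isg15, Rsad2 and Stat2, and in 3.46% of all 27025 genes. A match describes letters and not binding.

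Isg15, which encodes a ubiquitin-like protein (chromosome 4, 156199424 to 156200818, minus strand, GRCm38), had 103.7 and 104.1 CPM in N, 980 and 655 in E, 138 and 177 in Y, and 104 and 208 in EY. The E libraries stood above the 6 others, and EY and Y stayed near N. The log2 difference of E against N was 2.93 (SE 0.33, edgeR adjusted p = 0.00352). A UMI of Isg15 was detected in 62.4 and 51.5% of the CD8 T cells of E, in 15.8 and 28.3% of those of N and in 32.7 and 32.4% of those of EY.

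Cxcl10, a chemokine ligand of the receptor CXCR3 on T cells, had 43.0 and 20.7 CPM in N, 932 and 536 in E, 74.0 and 83.8 in Y, and 115 and 58.1 in EY. Its log2 difference between E and N was 4.71 (SE 0.43, edgeR adjusted p = 0.00134). Rsad2, which encodes the antiviral enzyme viperin, had 10.1 and 8.73 CPM in N, 211 and 143 in E, and between 5.28 and 22.2 in the other 4 libraries. Ifit1, whose product binds viral RNA, had 53.1 and 31.3 CPM in N, 273 and 245 in E, 37.3 and 50.9 in Y, and 26.5 and 18.5 in EY. For all 3 genes the E libraries stood above every other library. Between E and N alone, 33.7% of all genes showed no overlap, in either direction. The share of all genes with E above every other library was not computed.

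Further called members were Usp18, which removes ISG15 from proteins (2.81), Ifit3 (2.92), Oasl2 (2.70), Rtp4 (2.30), the tetherin gene Bst2 (2.12), Isg20 (1.5) and the nucleic acid sensor Zbp1 (1.45). After thinning each cell to 2000 UMIs, the median CD8 T cell held transcripts of 1.0 of 17 listed genes in both N libraries, of 4.0 in E1 and of 2.5 in E2, and the share of cells with 3 or more was 16.0 and 26.1% in N, 77.1 and 50% in E, 23.8 and 41.5% in Y, and 26.0 and 23.3% in EY.

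The 26 calls of E against N depended on each of the 4 libraries. Without N1, 8 genes were called, 3 of them in the list, and without N2, 0 genes were called, while every listed gene tested kept a positive difference, with medians of 1.98 and 2.32. Without E1, 6 genes were called, 4 of them in the list, and without E2, 12 and 6. The Isg15 difference lay between 2.63 and 3.18 under all alternatives, with the highest adjusted p of 0.172 (edgeR, without N2). The 1 gene called lower was Cxcl2, a chemokine of myeloid cells, which other cells held at more than 5 times its CD8 level and which was named after its values were seen.

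The E libraries were high in other cells of the same tissue too. The summed level of the listed interferon-stimulated genes in CD8 T cells was 1361 and 1629 CPM in N, 7192 and 4876 in E, 1511 and 3466 in Y, and 1171 and 1509 in EY. In conventional CD4 T cells it was 1263 and 1505 CPM in N, 8660 and 5389 in E, 2069 and 3617 in Y, and 2089 and 3497 in EY. In keratin-low CD3-negative cells it was 1710 and 2035 CPM in N, 7488 and 5493 in E, 2604 and 3406 in Y, and 3130 and 1773 in EY. In keratin-high epithelial cells it was 543 and 761 CPM in N, 4289 and 4337 in E, 1462 and 1887 in Y, and 3067 and 1604 in EY. EY and N did not overlap in conventional CD4 T cells and in epithelial cells, where EY was higher, and overlapped in CD8 T cells and CD3-negative cells. EY2 had 15 CD4 T cells. The difference between cell kinds was not tested, and the part of free RNA in it was not tested.

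**Figure D3:**
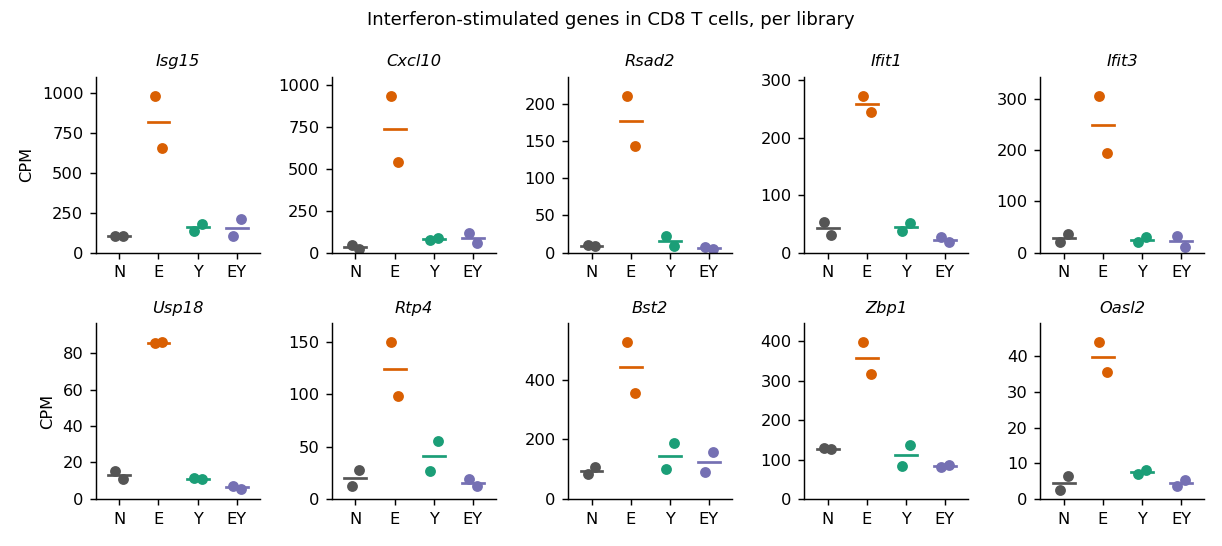
Each panel gives 1 gene's level in CD8 T cells in CPM on a linear axis from 0, with 1 point per library and a line at the mean of the 2 libraries of a genotype. The E libraries lie above the others for Isg15 (980 and 655 against 103.7 to 208 CPM), and the EY libraries lie with N and Y.

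In EY against E, 14 of 16 genes of the same list were called lower, with a median log2 difference of -2.18. Over all 8074 genes, edgeR called 85 lower (1.05%) and 66 higher (0.817%). Of the 66, 22 were genes that other cells held at more than 5 times the CD8 level, such as S100a8 and Lcn2. Isg15 fell by 2.32 (SE 0.32, adjusted p = 0.0043), Ifit1 by 3.39, Usp18 by 3.63 and Rsad2 by 4.54. Here the E libraries were used again, so these values share their samples with E against N. Between 9 (without E2) and 15 of the listed genes stayed called when 1 library was left out, and Isg15, Ifit1, Ifit2, Ifit3, Usp18, Rsad2, Rtp4 and Cxcl10 were called under every alternative. EY against N called 0 of the 16 listed genes, with a median of -0.37.

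The test of whether the 2 transgenes acted additively in CD8 T cells called 7 of 8074 genes, 1 with a positive term (0.0124%) and 6 with a negative one (0.0743%). These 6 had a lower value in EY than the sum of the separate differences gave, and 4 of them were in the interferon list, Rsad2 (-5.59, SE 0.61, adjusted p = 0.00752), Ifit1 (-3.55), Usp18 (-3.55) and Isg15 (-2.90). All 16 listed genes had a negative interaction, with a median of -2.59. Without N2 no gene was called, and DESeq2 called 26 genes, 11 of them in the list.

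The YAP transgene effect, fitted over all 8 libraries with E6-E7 as a second term, called 136 genes higher (1.68%) and 43 lower (0.533%). Of the 136, 64 were genes that other cells held at more than 5 times the CD8 level, such as Cd74, Saa3 and Il1b, and 72 were not. Of the 16 lists, hypoxia and glycolysis held the most called genes, with 8 of 13 tested higher and 0 lower, all 13 positive, and a median log2 difference of 0.78 beside -0.01 over all genes. Cells short of oxygen stabilise the factor HIF-1, which binds ACGTG in promoters of genes for glycolysis and of some for mitochondrial turnover, and activated T cells use the same factor.

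The promoters of Bnip3 (chr7:138909507-138909756, minus strand) and Hk2 (chr6:82774455-82774704, minus strand) are shown for this group, with ACGTG on either strand in capitals.
Bnip3: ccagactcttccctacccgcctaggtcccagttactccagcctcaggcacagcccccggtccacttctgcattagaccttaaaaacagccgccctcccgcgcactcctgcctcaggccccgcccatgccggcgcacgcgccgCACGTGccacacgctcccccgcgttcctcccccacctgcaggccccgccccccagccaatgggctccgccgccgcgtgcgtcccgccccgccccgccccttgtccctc
Hk2: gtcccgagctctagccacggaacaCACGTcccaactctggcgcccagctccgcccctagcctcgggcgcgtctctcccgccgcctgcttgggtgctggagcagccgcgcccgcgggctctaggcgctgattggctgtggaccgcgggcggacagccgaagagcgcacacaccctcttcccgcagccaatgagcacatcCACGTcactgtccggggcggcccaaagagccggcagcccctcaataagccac
In Bnip3 the 2 matches overlap, since CACGTG reads the same on both strands. ACGTG was found in 12 of 15 listed genes with a promoter in the table (80%) and in 18.5% of all genes. Tpi1, Eno1 and Gapdh were the listed genes without a match.

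Tpi1, a glycolytic enzyme (chromosome 6, 124810586 to 124814296, minus strand), had 103.7 and 77.5 CPM in N, 96.7 and 89.6 in E, 261 and 341 in Y, and 211 and 404 in EY. The 4 libraries with the YAP transgene stood above the 4 without it, as they did for 8.0% of all genes in either direction. The log2 difference was 1.78 (SE 0.21, edgeR adjusted p = 0.0043). Bnip3, which marks mitochondria for removal, had 2.53 and 3.64 CPM in N, 2.20 and 7.5 in E, 20.1 and 22 in Y, and 19.1 and 21.1 in EY, a difference of 2.13 (SE 0.32). Hk2, the hexokinase that starts glycolysis, had 7.59 and 14.9 CPM in N, 15.4 and 18.5 in E, 37.3 and 31.6 in Y, and 53.0 and 39.6 in EY, a difference of 1.44 (SE 0.21).

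Pgk1 (1.02), Eno1 (0.87), Hif1a itself (0.83), the oxidoreductase Ero1l (0.77) and Ldha (0.71), which makes lactate, were also called higher by edgeR. Hif1a had 210 and 218 CPM in N, 279 and 205 in E, 344 and 403 in Y, and 469 and 358 in EY. The calls of Tpi1, Hk2 and Pgk1 held under every alternative. The call of Bnip3 was lost without N2, without Y1 and when cells with macrophage, dendritic or B cell UMIs were left out. Its log2 difference was then at least 1.80. Of the list, 3 (without Y1) to 8 genes stayed called when 1 library was left out, all of those tested with a positive difference. The summed level of the list was 3914 and 3131 CPM in N, 3442 and 3379 in E, 5746 and 6333 in Y, and 4971 and 6342 in EY.

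The same sum was also higher with the YAP transgene in the other cells of these libraries. In conventional CD4 T cells it ran from 3839 to 4706 CPM without the transgene and from 5644 to 8384 with it, and in keratin-high cells from 3369 to 4047 and from 4861 to 10370. The keratin-high and CD3-negative cells held Tpi1 at 437 and 337 CPM on average, within 5 times of the CD8 levels. The part of RNA from these cells in the CD8 values was not tested.

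Other genes that rose with the YAP transgene encode surface receptors, although 1 of 14 checkpoint genes and 0 of 16 cytokine receptor genes of the lists were called higher. Kit, the stem cell factor receptor (chromosome 5, 75574916 to 75656722, plus strand), had 2.53 and 6.91 CPM in N, 11 and 5.74 in E, 73.4 and 35.7 in Y, and 79.5 and 55.4 in EY. Its log2 difference was 3.31 (SE 0.33, edgeR adjusted p = 0.00123), and the call held under every alternative. Kit was detected in 1.05 to 3.32% of CD8 T cells without the transgene and in 13.2 to 23.3% with it, while it was detected in 0.115 to 4.44% of keratin-high cells, 2.12 to 24.2% of CD3-negative cells and 4.17 to 20.2% of CD4 T cells. Kit is also 1 of the 3 mast cell markers given above, of which Cpa3 and Mcpt4 were at 0 in these cells.

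The costimulatory receptors Tnfrsf4 (OX40) and Tnfrsf9 (4-1BB), which T cells raise after antigen contact, rose by 2.23 and 1.43. Tnfrsf9 had 58.2 and 107 CPM in N, 98.9 and 82.1 in E, 184 and 131 in Y, and 384 and 292 in EY, and Tnfrsf4 had 22.9 to 119 CPM in the libraries without and 189 to 306 in those with the transgene. The Tnfrsf4 call was lost without N2, and the Tnfrsf9 call without N1, E1, E2 or Y1. The decoy receptor Il1r2, which binds interleukin-1, rose by 4.10 (SE 0.58), from 1.32 to 35.4 CPM up to 88.2 to 203, with 477 CPM in CD3-negative cells. Neutrophil markers in the same sums were at 23.4 to 1975 CPM in Y and 1787 to 4284 in EY. Their part in the Il1r2 rise was not tested, and no alternative left out cells with them. The chemokine receptor Ccr7 (1.84) and Cd83 (2.36), both also expressed by mature dendritic cells, rose as well and moved with the dendritic cell markers given above. With cells of 2 or more macrophage, dendritic or B cell UMIs left out, Ccr7 and Cd83 kept their calls and Cd74 lost its call. That filter did not count Cd74 or H2-Ab1, and Cd207 and Flt3 were at 0 in Y2 and EY1. It cannot remove free RNA, so the part of dendritic cells in these rises was not tested. The Ccr7 call was lost without N1, N2, E2 or EY1, and the Cd83 call without N2, E2 or Y1.

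Gzmc, the gene of granzyme C, had the largest named rise, at 5.75 (SE 1.0, adjusted p = 0.018), but it was uneven. It had 2.53 and 10.6 CPM in N, 22 and 6.18 in E, 891 and 22 in Y, and 845 and 204 in EY, so that Y2 lay at the level of E1. In Y1, 621 of 1861 cells held a Gzmc UMI, and in EY1, 45 of 150 cells did, 1 of them with 552 of the library's 1149 UMIs. The call was lost without N2, E2 or Y1. Of the other 13 cytotoxic granule genes tested, none was called higher and Nkg7 was called lower. With Gzmc counted, 9 of the 14 had a positive difference.

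Klf2 and S1pr1 were among the genes that fell with the YAP transgene. Klf2, a factor that keeps T cells in circulation, had 509 and 486 CPM in N, 371 and 638 in E, 134 and 228 in Y, and 166 and 169 in EY, and fell by 1.51 (SE 0.20, edgeR adjusted p = 0.00714). Its target S1pr1, the exit receptor, had 28.6 to 42.4 CPM without and 3.96 to 16.2 CPM with the transgene and fell by 1.53. Of the 15 tested genes of naive, memory and egress function these 2 were called lower and Ccr7 higher. A negative difference was found for 13, with a median of -0.61. The immediate early and dissociation genes moved along with these falls, with 17 of 18 negative, a median of -0.51 and none called. Their summed level was 7199 to 7789 CPM without and 4530 to 6617 CPM with the transgene, and their part in the falls was not tested. The Klf2 call held under every alternative. The S1pr1 call was lost without N2, E2 or Y1 and when cells with macrophage, dendritic or B cell UMIs were left out.

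Further falls were Rgcc (1.56 on the log2 scale), the interferon-induced GTPase Igtp (1.45), Ly6c2 of memory CD8 T cells (1.25), the activating receptor gene Klrk1 of NKG2D (1.13), the chemokine receptor Cxcr3 (1.11) and the costimulator Cd28 (0.89). Cxcr3 had 129 and 113 CPM in N, 121 and 143 in E, 62.0 and 104 in Y, and 39.0 and 38.3 in EY, without overlap, yet its call was lost when any library but Y2 was left out. The Cd28 call was lost without N1, N2, E1, E2 or Y1, and the Klrk1 call without N1, N2, E1, E2 or EY2. Of 16 interferon-stimulated genes, 2 (Gbp2 and Ifi47) were called lower and all 16 had a negative difference, with the E libraries high as described above. Nkg7 fell by 0.59, with 2356 to 2747 CPM in the libraries without and 1423 to 1873 CPM in those with the transgene.

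**Figure D4:**
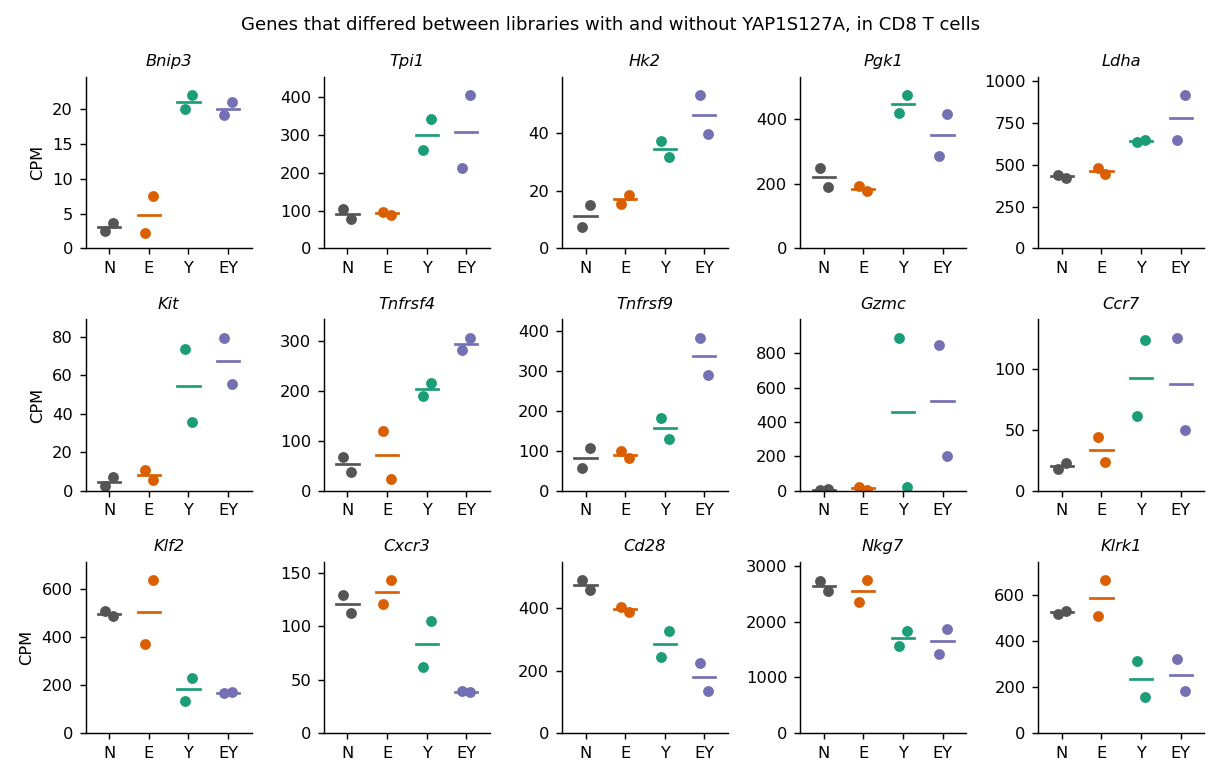
Each panel gives 1 gene's level in CD8 T cells in CPM on a linear axis from 0, with 1 point per library and a line at the mean of the 2 libraries of a genotype. For Tpi1 the Y and EY libraries lie between 211 and 404 CPM and the N and E libraries between 77.5 and 103.7 CPM, and for Klf2 the order is turned.

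The YAP calls depended on single libraries and on the cells admitted. Between 44 (without E2) and 352 (without Y2) genes were called when 1 library was left out, and 58 without Y1, 79 without N2, 100 without E1 and 116 without N1. With cells that held 2 or more macrophage, dendritic or B cell UMIs left out, 64 genes were higher and 15 lower. Neutrophil markers were not counted by that filter. Of the 36 named genes that were called, 9 kept the call under every alternative, namely Ece1, Epb41l2, Hk2, Il1r2, Kit, Klf2, Pgk1, Snhg15 and Tpi1.

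E6-E7 as a main effect called 0 of 8074 genes (0.0%) by edgeR, with 613 genes at an unadjusted p under 0.05 and 1 gene called by DESeq2. In it all 16 interferon-stimulated genes were positive, with a median of 0.83. Y against N called 1 gene higher (0.0124%), Ccdc184, which was named after its values were seen, with 0 and 1.17 normalised CPM in N and 40.8 and 21.3 in Y. The 13 hypoxia and glycolysis genes were all positive there, with a median of 0.91, and none was called.

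EY against N, the comparison of the double-transgenic tissue with its control, called 41 genes higher (0.508%) and 17 lower (0.211%). Of the 41, 11 were genes that other cells held at more than 5 times the CD8 level, such as Chil3 and Lcn2. The hypoxia genes Bnip3, Hk2 and Tpi1 rose by 2.55, 1.85 and 1.84, Kit by 3.50, Tnfrsf9 by 1.97 and the interleukin-2 receptor alpha chain Il2ra by 1.5. Il2ra had 55.7 and 78.6 CPM in N, 70.3 and 70.1 in E, 103 and 67.3 in Y, and 164 and 230 in EY. Cxcr3 (1.58), Klf2 (1.52), the integrin chain Itgb1 (1.51) and Cd28 (1.34) fell. No cytotoxic granule gene was called. The largest rises, Saa3 (8.71) and Slpi (5.72), are genes that CD3-negative cells held at 3078 and 1075 CPM on average, and Saa3 in CD8 T cells went from 0 and 1.82 CPM in N to 441 and 891 in EY, beside the neutrophil markers given above, whose part was not tested.

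In EY against N, 0 genes were called without N2, 7 without N1 and 8 without EY2, against 58 with every library, and no named gene kept its call under every alternative. Sv2c, a vesicle protein gene, was at 0.04 CPM in keratin-high and 0.29 in CD3-negative cells. It had 12.6 and 4.73 CPM in N, 2.20 and 1.32 in E, 6.48 and 8.25 in Y, and 50.8 and 69.9 in EY. It was higher in EY than in N (3.27), E (5.35) and Y (3.14), and together with Saa3 (4.70) it was 1 of the 2 genes called in EY against Y (0.0248% of those tested).

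In EY against E, 2 of 14 checkpoint genes (Tnfrsf9 and Pdcd1) and 1 of 16 cytokine receptor genes (Il2ra) were called higher and 0 lower, beside the 0.817% of all genes. Pdcd1 had 169 and 130 CPM in E and 425 and 334 in EY, beside 220 and 285 in N and 223 and 253 in Y, and rose by 1.45 (SE 0.23, edgeR adjusted p = 0.0112). Tnfrsf9 rose by 2.01, Il2ra by 1.55, Kit by 3.38 and the granzyme inhibitor Serpinb6b by 1.77. The integrin chain Itgav rose by 1.93 and Bcl2l15 by 5.03, whereas Cd69, which holds T cells in tissue, fell by 1.10 and Cxcr3 by 1.72. All but 11 of the 35 named calls were lost under some alternative, and without E2 20 of the 151 calls were left.

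Ccl3, a chemokine for myeloid cells and T cells, rose by 3.31 in EY against E, from 44.0 and 70.6 CPM to 293 and 855. In EY1, 1 cell held 187 of the 398 Ccl3 UMIs of the CD8 T cells and 535 of the 1020 Ccl4 UMIs belonged to 1 cell, so the EY1 value rests on few cells. Its call was lost without E1, E2 or EY2.

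The shares of CD8 T cells in which single functional genes were detected varied between libraries without passing a test. After thinning to 2000 UMIs, Pdcd1 was found in 26.6 and 35.7% of cells in N, 21.1 and 21.7% in E, 28.4 and 39.3% in Y, and 39.3 and 50.6% in EY. The mean was 13.1 points higher with the YAP transgene (exact permutation test, two-sided, p = 0.0571, adjusted p = 0.686 over 12 tests), with 3 of the 4 libraries above all 4 without it. At full depth the shares were 36.7 to 67.3%, and thinned keratin-high cells held Pdcd1 in at most 0.344% of cells.

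Gzmb was found in 30.9 and 45.9% of thinned CD8 T cells in N, 41.3 and 34.2% in E, 54.9 and 20.7% in Y, and 56.7 and 66.5% in EY, and Y2 was again apart from Y1. At least 1 of the residency genes Itgae, Itga1 and Cxcr6 was found in 71.2 to 79.8% of cells without and 51.7 to 76.8% with the YAP transgene, which put the mean -10.3 points apart (two-sided exact permutation test, p = 0.114, 0.686 after adjustment). Gzmk was found in 9.33 to 21.0% and a cycling gene in 15.2 to 39.8% of cells. For none of these 5 measures did either transgene give an adjusted p under 0.686.

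Within libraries, cells with Gzmb and cells with the memory factor Tcf7 were mostly not the same. In Y1, 1021 of 1860 thinned cells held Gzmb and 92 held Tcf7, and 20 held both, 0.40 times the number that independent detection would give. The same ratio was 0 to 0.59 in the other 7 libraries, from counts of 0 to 4 cells with both. Gzma and Gzmb were found together 1.22 to 2.34 times as often as independent detection would give. Cells of a library share its depth and free RNA, and these ratios are a description.

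Variable segments of the T cell receptor beta chain (Trbv) were detected in part of the cells, so the counts below are of segments detected. Of 3143 CD8 T cells, 677 held a UMI of a Trbv segment and 630 of exactly 1. In Y1, the 364 such cells used 20 segments, led by Trbv16 with 74 cells (20.3%, exact 95% interval 16.3 to 24.8), Trbv13-1 with 62 and Trbv20 with 55. In N2, 91 cells used 16 segments with Trbv12-2 and Trbv13-2 at 17 cells each, in E2, 69 cells used 17 segments with Trbv12-2 at 18 cells (26.1%), and in EY1, 43 cells used 16, with 6 cells each for Trbv3, Trbv12-2, Trbv16 and Trbv26. The leading segment took 13.95 to 31.25% of a library's cells with 1 segment, and it was not the same segment in all libraries. A segment is not a clone, the libraries sequence the 3′ ends of transcripts, and 10.5 to 32.0% of a library's CD8 T cells gave a segment at all.

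**Figure D5:**
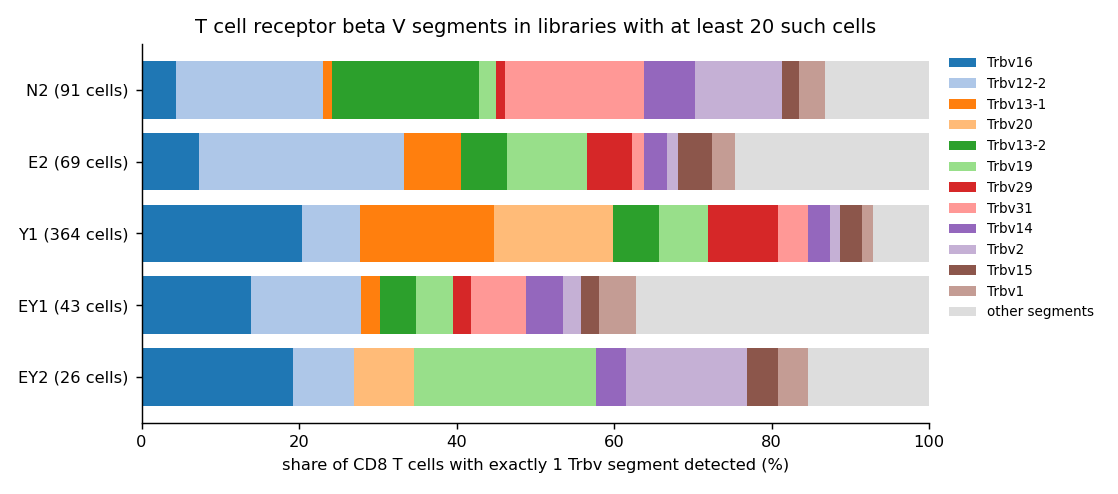
Each bar divides the CD8 T cells of 1 library with UMIs of exactly 1 beta variable segment by segment, in percent, for the 5 libraries with at least 20 such cells; grey holds the remaining segments. Trbv16 takes 20.3% of the 364 cells of Y1, and no bar is filled by 1 segment.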

How the data were processed

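Single-cell 3′ libraries were made from sorted viable tongue epithelial cells by the study. The authors deposited a filtered matrix of raw UMI counts per gene and cell for each of 8 libraries, made with Cell Ranger on mm10 per the labels, and this count unit was used throughout. The CD8 T cells and the gene lists were chosen with earlier results of these data known. UMIs of the CD8 T cells were summed per library, and genes passing filterByExpr were tested with edgeR 4.0.16 (quasi-likelihood, TMM, R 4.3.3) with Benjamini-Hochberg adjustment at 0.05. The transgene effects came from an additive model, and pairwise contrasts and the interaction from group means, each over all 8 libraries with 2 per group. Genes used by a gate, 15 in all, were not tested. DESeq2 1.42.0 was an alternative. The scripts were tested on simulated data. No doublet caller was run.

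Named genes were those called, at 50 CPM or more in 1 group, without overlap between groups, not sex-linked, and at most 5 times higher in other cells, up to the 12 largest per direction, plus 37 panel genes and up to 4 called members per list. Levels per library are CPM over all genes, means of lymphocyte comparisons are TMM-normalised CPM, and log2 differences are edgeR's with its default prior count, with the SE taken as the difference divided by the square root of its F statistic. Shares were compared by exact permutation over libraries (SciPy 1.17.1), after thinning to 2000 UMIs where stated. Separate animals are stated in the study's methods but not per library, so p-values measure the spread between libraries. The depth of the CD8 sums limits genes of low counts. Listed genes Mx1, Trgc1 and Trgc2 were not measured, and Aldoa was left out of the tests because 2 rows carry its symbol. Results that rest on either of 2 particular genes, among them the planned share of egress-gene positive cells, are not reported here.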

Additional observations from a re-analysis of the deposited data

Results flagged for a closer look

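In all, 7 genes were singled out because the effect of the YAP transgene on them in CD8 T cells differed between mice with and without E6-E7, by the interaction term of edgeR's quasi-likelihood fit over 8 libraries. The interaction was -5.59 on the log2 scale for Rsad2, -3.55 for Ifit1, -3.55 for Usp18, -4.49 for Cxcl10, -2.04 for Trim30a, -2.90 for Isg15 and 5.22 for Sv2c, with adjusted p between 0.00752 and 0.0487. For the 6 negative ones both E libraries were above all other libraries. Sv2c was higher in EY than in the other 6 libraries. The term that picked these genes came from the same libraries, so this order only describes them. The share of all genes with such an order was not computed. The calls of all 7 were lost without N2.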

How the results depend on the processing

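No paired analysis was possible because replicate numbers within genotypes follow the order of the samples and pair nothing across genotypes. For CD8 T cells against other lymphocytes, both cell kinds come from the same libraries and the library was a block in the fit. Without the replicate block, 422 genes were called against CD4 T cells and 532 against NK cells, in place of 724 and 1012. Leaving out 1 library at a time gave 44 to 352 calls for the YAP transgene, 0 to 2 for E6-E7, 0 to 204 for EY against N, 0 to 52 for Y against N, 0 to 44 for E against N, 0 to 21 for EY against Y, 20 to 276 for EY against E, 0 to 37 for the interaction, 546 to 747 against CD4 T cells, 472 to 651 against gamma-delta T cells and 432 to 1124 against NK cells. DESeq2 called 287 genes for the YAP transgene, 1 for E6-E7, 89 for EY against N, 18 for Y against N and 26 for the interaction. Without a filter on low counts, the calls were 753, 140, 527, 272, 138 (E against N), 135 (EY against Y), 580 (EY against E), 114 (interaction), 1301 (CD4), 1132 (gamma-delta) and 1672 (NK). With at least 2 CD8 UMIs, 92 genes were called for EY against N and 15 for Y against N, and with Cd8b1 required, 5 for Y against N and 3 for the interaction. With a minimum of 200 genes or no upper limits, Y against N had 0 calls. Leaving out cells of 2 or more macrophage, dendritic or B cell UMIs gave 79 calls for the YAP transgene. The same filter gave 7 for Y against N and 1 for EY against Y. Without genes over 5 times higher in other cells the YAP calls were 113. The filter on macrophage, dendritic or B cell UMIs and the removal of those genes were chosen after seeing the data. The planned removal of cells with 2 or more UMIs of any other cell's markers was not run, since 2979 of 3143 cells had them. Il17a in EY against E turned to 5.19 with 2 CD8 UMIs and 3.86 with Cd8b1 required, lay between -1.51 and 4.82 when 1 library was left out, and its E1 value rests on 1 cell with 128 of 134 UMIs. Leaving out 1 library, the difference with the YAP transgene ranged from 9.35 to 31.3 points for the CD8 share of CD3 cells, -7.22 to 5.20 of keratin-low cells, -14.4 to -6.08 for residency, 9.39 to 16.8 for Pdcd1, 6.06 to 21.3 for Gzmb, -0.47 to 3.42 for Gzmk and 1.65 to 8.83 for cycling cells, and with E6-E7 from -3.70 to 18.3, -12.3 to -0.42, -6.73 to 2.64, -5.13 to 4.70, 5.78 to 17.2, -0.98 to 2.91 and -2.25 to 5.74 in the same order. The causes were not tested. N1, with 395276 UMIs in 95 CD8 T cells, sets the depth at which low genes can be compared with N.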
